A study of Mus musculus with 9 samples.

Results

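The transcripts described here are 10 peptide hormone genes, taken by name from a table of read counts for 38720 mouse genes in 20 RNA-seq libraries of sorted thymic epithelial cells (TEC). They were Ins2, Gcg, Sst and Ppy, whose peptides are best known from the pancreatic islet, Gip, Pyy, Ghrl and Cck, best known from the gut and stomach, and Pdyn and Pth2, which encode neuropeptides. All 10 were found in the table under their symbols. The study varied the dose of Foxn1, the transcription factor that TEC need to form a thymus, and compared cortical TEC (cTEC) with medullary TEC (mTEC).

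Heterozygous and homozygous mice carried a Foxn1 bacterial artificial chromosome (BAC) transgene, written wt* in the labels (FOXN1-FLAG in the ChIP line), on the nude background, which lacks working endogenous Foxn1. They gave 2 heterozygous mTEC, 2 homozygous mTEC, 3 heterozygous cTEC and 3 homozygous cTEC libraries. In a separate set of mice, Foxn1-deleted cTEC (5 libraries) carried beta5t-rtTA on both alleles, Foxn1fl/fl and 1 copy of tetO-Cre1Jaw/J, and control cTEC (5 libraries) had the same alleles without the Cre transgene. Both received doxycycline and were taken 72 h later, and the deletion removes exons 7 to 8. The beta5t (Psmb11) promoter that drives rtTA is active in cTEC and in precursors of mTEC, and mTEC of these mice were not analysed here. Sorted cells were CD45-, EpCAM+ and MHCII+, with Ly51+UEA1- cells taken as cTEC and Ly51-UEA1+ cells as mTEC. The labels give no age, and do not say whether the libraries of a group came from separate animals, so p-values measure only the spread between these libraries.

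Medullary TEC are known for transcribing a wide range of genes that otherwise belong to other organs, so that developing T cells meet those proteins before they leave the thymus. Aire is the best known regulator of this programme and Fezf2 another, and insulin is its textbook example. Peptide hormones are made as longer precursors, cut by prohormone convertases and stored in dense-core granules, and rare TEC that resemble endocrine cells are also known in the medulla.

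Library totals lay between 20719630 and 22372633 reads. By the markers the mTEC and cTEC labels held: Aire had 21204 and 21598 reads in heterozygous and 22234 and 25665 reads in homozygous mTEC libraries, against 28 to 65 reads in the cTEC libraries of the transgenic mice. The 15 mTEC markers summed to 6864 to 8517 CPM (read counts scaled to 1000000 reads per library) in mTEC and 333 to 1040 CPM in transgenic cTEC, and the 12 cTEC markers to 2755 to 4346 CPM in mTEC and 5700 to 28988 CPM in transgenic cTEC. Foxn1 reads, counted over the whole gene and so no check of a deletion of exons 7 to 8, were 7546 to 11782 in Foxn1-deleted cTEC and 7793 to 12950 in control cTEC. In mTEC they ran against the transgene dose in the labels. They were 10361 and 10633 in libraries labelled heterozygous against 6630 and 7104 in libraries labelled homozygous (log2 fold change 0.66 ± 0.08, edgeR adjusted p = 1.68e-05). In cTEC they ran with it, at 24927 to 26097 in heterozygous against 27572 to 31736 in homozygous libraries (-0.36 ± 0.06, adjusted p = 4.45e-04). The table does not separate reads of the transgene from reads of the nude allele, so these counts are no check of transgene dose. Heterozygous and homozygous are used throughout as the labels give them, and every direction in mTEC rests on those labels.

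The genes lie on 6 chromosomes of the GRCm38 build, with spans from the RefSeq annotation of GRCm38.p6. Ppy (chr11:102099931-102101319) and Pyy (chr11:102106676-102107832), paralogs of the neuropeptide Y family, are neighbours with 5356 bases between them, and Gip lies on the same chromosome (chr11:96024532-96030831). Ins2 (chr7:142678656-142679726) and Pth2 (chr7:45179701-45181838) share chromosome 7, and Gcg (chr2:62474530-62483653) and Pdyn (chr2:129686549-129699938) share chromosome 2. Ghrl (chr6:113716119-113719911), Cck (chr9:121489824-121495694) and Sst (chr16:23889573-23891342) lie alone.

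The promoters of 4 genes are shown, as the 250 bases before a RefSeq start (GRCm38.p6) on the strand of the gene. The Cck and Gcg windows adjoin the gene spans given above. Those of Pth2 and Sst lie inside the spans, before a start within the gene, and are not the sequence upstream of the span. Cck is shown because it was the member that passed the test in cTEC, Pth2 because its change in mTEC ran against that of the other members, and Sst and Gcg as members that fell. Capitals mark matches on either strand to GACGC (the core of the known FOXN1 site), TGACGTCA (the cAMP response element, CRE) or TATAAA (the TATA box).
Cck, chr9:121495695-121495944, minus strand: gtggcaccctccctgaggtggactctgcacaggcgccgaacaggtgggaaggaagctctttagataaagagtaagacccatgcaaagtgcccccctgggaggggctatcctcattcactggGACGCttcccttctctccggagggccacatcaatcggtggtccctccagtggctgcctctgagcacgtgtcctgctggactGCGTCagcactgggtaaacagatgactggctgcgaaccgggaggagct
Pth2, chr7:45180745-45180994, plus strand: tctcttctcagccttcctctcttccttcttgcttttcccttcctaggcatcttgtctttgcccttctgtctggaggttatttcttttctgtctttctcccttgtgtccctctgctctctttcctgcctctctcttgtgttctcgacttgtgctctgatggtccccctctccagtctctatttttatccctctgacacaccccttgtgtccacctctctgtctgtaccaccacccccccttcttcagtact
Sst, chr16:23890845-23891094, minus strand: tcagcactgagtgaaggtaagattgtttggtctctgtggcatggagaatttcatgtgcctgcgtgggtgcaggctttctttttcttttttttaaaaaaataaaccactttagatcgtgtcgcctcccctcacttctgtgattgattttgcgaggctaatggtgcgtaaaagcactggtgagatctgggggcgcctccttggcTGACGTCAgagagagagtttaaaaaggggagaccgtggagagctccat
Gcg, chr2:62483654-62483903, minus strand: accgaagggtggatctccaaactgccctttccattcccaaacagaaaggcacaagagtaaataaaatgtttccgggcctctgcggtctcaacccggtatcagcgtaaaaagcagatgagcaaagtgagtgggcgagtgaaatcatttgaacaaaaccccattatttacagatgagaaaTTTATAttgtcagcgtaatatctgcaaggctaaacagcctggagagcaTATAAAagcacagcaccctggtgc
RefSeq promoter windows were found for 9 of the 10 genes, all but Ins2, and numbered 14, as some genes had alternative starts. Matches are counted per gene, in any of its windows. The shares over all mouse windows are per window, so the units differ. GACGC was in the windows of Cck and Ghrl, 2 of 9 genes, and in 22.6% of 32851 mouse promoter windows of the same length. In Cck it lies 129 to 125 bases before the start, and on the other strand 48 to 44 bases before it. TGACGTCA was in Sst alone of the 9, 48 to 41 bases before the start, and in 1.55% of all windows. TATAAA was in Gcg and Ppy, 2 of 9, and in 12.4% of all windows, and the 3 motifs did not overlap in these genes. These are matches of letters in the window and not measured sites.

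In mTEC, 9 of the 10 hormone genes fell in libraries labelled heterozygous relative to those labelled homozygous, in which Foxn1 itself was lower, by 2.91-fold (Pdyn) to 61.5-fold (Gip), and Pth2 rose 7.38-fold. The libraries of the groups did not overlap for any of the 10, given as a description of 2 libraries a group. The share of all genes without overlap was not counted, so the lack of overlap cannot be called particular to the hormone genes. In the same fit 59.7% of 19222 genes passed the threshold (an adjusted p of 0.05), 30.8% lower and 28.9% higher. With median-ratio size factors 64.4% of the genes called were lower, against 51.6% in the fit reported, with a shift of -0.13 (log2) in the median of all genes. The fold change is on the log2 scale, heterozygous over homozygous, with its standard error (SE), and p-values are from edgeR's quasi-likelihood test with Benjamini-Hochberg adjustment over all genes. Of the 10, 9 passed the low-count filter (0.463 CPM in at least 2 libraries) through mTEC libraries only. Ins2 and Gip would not have passed it without the homozygous mTEC libraries, in which they are high. The number of members called, and the p-values of Ins2 and Gip between the mTEC genotypes, are therefore given as a description.

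**Figure D1:**
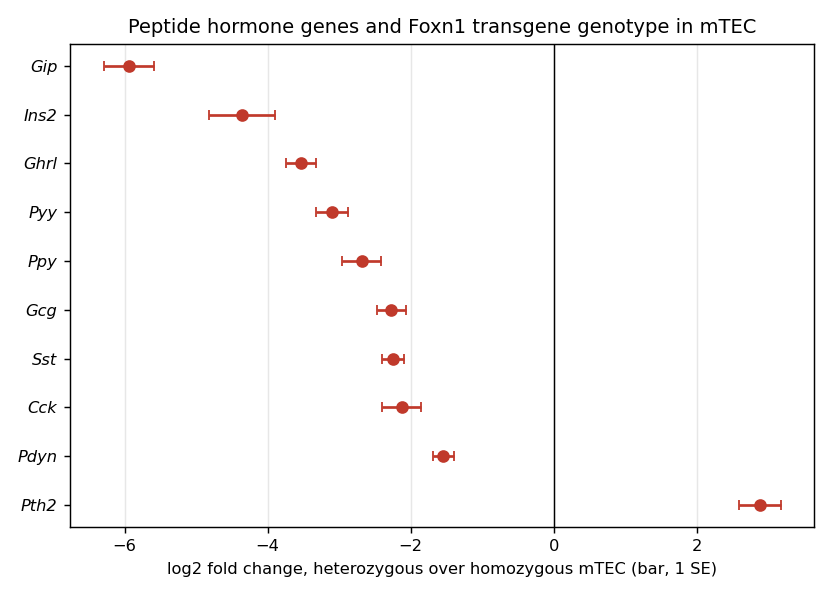
Log2 fold change of each hormone gene, heterozygous over homozygous mTEC (x axis; points, fitted value; bars, 1 SE; 2 libraries a group), with genes down the page. The points of 9 genes lie left of 0, from -5.94 for Gip to -1.54 for Pdyn, and Pth2 lies at 2.88.

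Among the islet hormones, Ins2 (insulin, which lowers blood glucose) had 11 and 2 reads in heterozygous mTEC libraries, against 170 and 112 reads in homozygous ones. The means were 0.306 ± 0.300 CPM in heterozygous and 6.53 ± 1.90 CPM in homozygous mTEC (SD, n = 2 each), with a log2 fold change of -4.36 ± 0.46 (edgeR adjusted p = 1.6e-05). Both homozygous libraries were far above both heterozygous ones, and the heterozygous pair differed from each other. The Ins2 fold change was -6.00 without heterozygous mTEC library 1 (edgeR adjusted p = 5.29e-05) and -3.61 without heterozygous mTEC library 2 (adjusted p = 1.71e-04). Ins1, a near-identical copy of Ins2 between which read assignment is uncertain, had 0 and 0 reads in heterozygous and 6 and 3 in homozygous mTEC, and 0 in every cTEC library.

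Gcg (glucagon and the GLP peptides) had 68 and 58 reads in heterozygous mTEC, against 347 and 284 reads in homozygous mTEC. Its means were 2.97 ± 0.329 CPM in heterozygous and 14.6 ± 2.06 CPM in homozygous mTEC (SD, n = 2 each; log2 fold change -2.27 ± 0.20, edgeR adjusted p = 5.29e-06). Sst (somatostatin, an inhibitor of the release of other hormones), whose window holds the CRE, moved by nearly the same factor. It had 118 and 93 reads in heterozygous mTEC, against 547 and 491 reads in homozygous mTEC. Its means were 4.97 ± 0.826 CPM in heterozygous and 24.0 ± 1.84 CPM in homozygous mTEC (SD, n = 2 each; -2.25 ± 0.16, edgeR adjusted p = 8.91e-07). Ppy (pancreatic polypeptide) was low in the same 2 libraries. It had 49 and 27 reads in heterozygous mTEC, against 297 and 211 reads in homozygous mTEC. Its means were 1.79 ± 0.731 CPM in heterozygous and 11.8 ± 2.82 CPM in homozygous mTEC (SD, n = 2 each; -2.69 ± 0.28, edgeR adjusted p = 5.27e-06).

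Of the gut hormones, Gip (the incretin released by duodenal K cells) showed the widest gap of the 10. It had 2 and 4 reads in heterozygous mTEC, against 212 and 186 reads in homozygous mTEC. Its means were 0.141 ± 0.0669 CPM in heterozygous and 9.21 ± 0.852 CPM in homozygous mTEC (SD, n = 2 each; -5.94 ± 0.35, edgeR adjusted p = 1.5e-06). With 6 reads in the 2 heterozygous libraries together, the ratio of the counts was 0.0154, with an exact 95% interval of 0.00560 to 0.0337 that covers counting error only. Pyy (peptide YY, a satiety signal of the distal gut and the neighbour of Ppy) had 78 and 44 reads in heterozygous mTEC, against 568 and 520 reads in homozygous mTEC. Its means were 2.87 ± 1.13 CPM in heterozygous and 25.2 ± 1.57 CPM in homozygous mTEC (SD, n = 2 each; -3.10 ± 0.23, edgeR adjusted p = 1.19e-06).

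Ghrl (ghrelin, the appetite-stimulating hormone of the stomach) had 23 and 36 reads in heterozygous mTEC, against 367 and 343 reads in homozygous mTEC. Its means were 1.39 ± 0.436 CPM in heterozygous and 16.4 ± 0.787 CPM in homozygous mTEC (SD, n = 2 each; -3.53 ± 0.21, edgeR adjusted p = 5.74e-08). It had the smallest adjusted p of the 10. Cck (cholecystokinin, which drives gall bladder contraction and pancreatic secretion) had 62 and 64 reads in heterozygous mTEC, against 264 and 305 reads in homozygous mTEC. Its means were 2.97 ± 0.0713 CPM in heterozygous and 13.2 ± 1.34 CPM in homozygous mTEC (SD, n = 2 each; -2.12 ± 0.27, edgeR adjusted p = 2.85e-05).

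Of the neuropeptide genes, Pdyn (prodynorphin, the precursor of ligands of the kappa opioid receptor) had 200 and 220 reads in heterozygous mTEC, against 642 and 624 reads in homozygous mTEC. Its means were 9.90 ± 0.682 CPM in heterozygous and 29.3 ± 0.592 CPM in homozygous mTEC (SD, n = 2 each; -1.54 ± 0.14, edgeR adjusted p = 6.85e-06). Pth2 (the tuberoinfundibular peptide, ligand of the parathyroid hormone 2 receptor) ran the other way. It had 87 and 100 reads in heterozygous mTEC, against 14 and 12 reads in homozygous mTEC. Its means were 4.41 ± 0.440 CPM in heterozygous and 0.602 ± 0.0655 CPM in homozygous mTEC (SD, n = 2 each; 2.88 ± 0.29, edgeR adjusted p = 3.66e-05). Both heterozygous libraries lay above both homozygous ones. The Pth2 window, which lies inside the gene span, holds none of the 3 motifs.

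In these bulk libraries, fewer hormone-positive cells and less hormone RNA per cell cannot be told apart. Markers of other cells moved between the same mTEC groups. The 10 myeloid markers in the table summed to 106 to 108 CPM in heterozygous and 517 to 611 CPM in homozygous mTEC, and 6 of the 9 tested fell. The 15 thymocyte markers summed to 46.9 to 47.8 CPM in heterozygous and 91.3 to 116 CPM in homozygous mTEC, with 13 of 15 lower, and the 5 B cell markers to 17.7 to 20.6 CPM in heterozygous and 36.6 to 44.4 CPM in homozygous mTEC, with 3 lower and 1 higher. All 12 cTEC markers fell (2755 to 2756 CPM in heterozygous and 3585 to 4346 CPM in homozygous mTEC). Of 9 fibroblast markers 3 rose and 2 fell, of 5 endothelial markers 2 rose and 1 fell, and of 8 parathyroid and thyroid markers 1 rose and 4 fell. No marker of these lists was at 0 in either mTEC group, and their part in the hormone results was not tested.

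**Figure D2:**
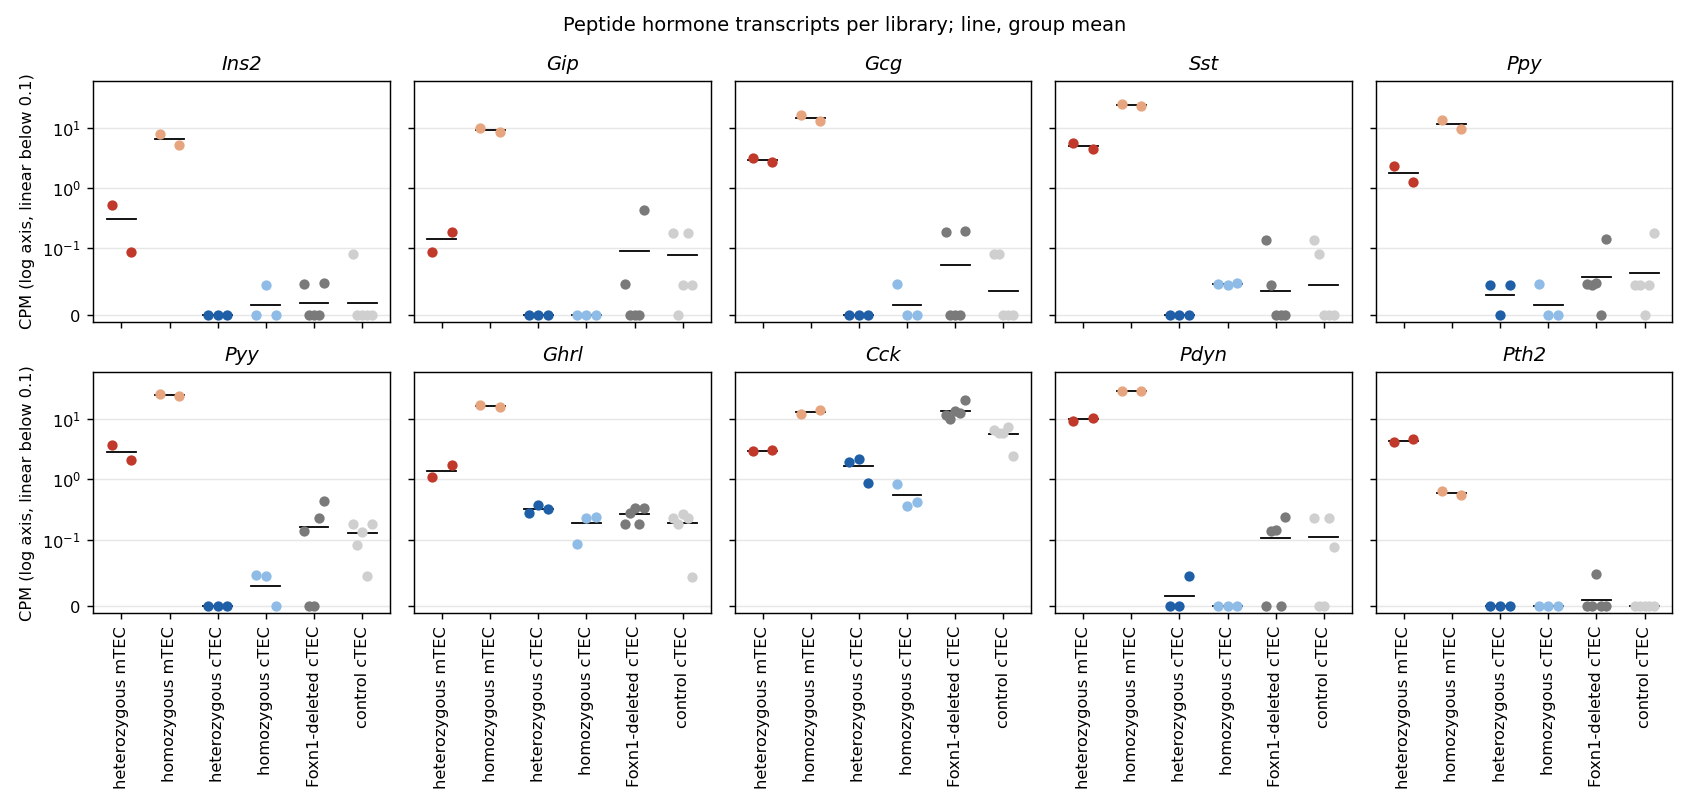
CPM of each hormone gene in every library (y axis, logarithmic above 0.1 CPM and linear below; points, libraries; lines, group means; groups along the x axis). In 8 panels the homozygous mTEC points are the highest of all, Pth2 is highest in heterozygous mTEC, and Cck is the panel in which cTEC points rise well above 1 CPM.

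The machinery that handles such peptides did not move as one block between the mTEC genotypes. Of 12 prohormone processing genes, 6 fell and 2 rose. Scg5 (the chaperone of the convertase PC2) had a log2 fold change of -1.33, Pcsk1n (the proSAAS inhibitor of PC1/3) -2.50 and Cpd (a carboxypeptidase) -0.48, while Pcsk6 (1.33) and Furin (0.61), both convertases of the general secretory pathway, rose. Pcsk1 and Pcsk2, which encode the convertases PC1/3 and PC2 of endocrine cells, had values of 0.44 (edgeR adjusted p = 0.0737) and -0.17 (adjusted p = 0.681). The median of the 12 was -0.31, beside 0.01 over all genes tested. Of the 6 that fell, Pcsk1n and Mboat4 (the acyltransferase that modifies ghrelin) passed the filter only with the homozygous mTEC libraries.

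Of 16 secretory granule genes tested, of 18 in the list, 9 fell and 4 rose, with a median of -0.33. Vgf, a granule peptide precursor, had -3.01, Ptprn, the granule membrane protein IA-2, -2.10, and Cadps, a priming factor for granule release, -1.09. Syt7, a calcium sensor, had 0.86 and the granins Scg2 and Scg3 each had 0.84. Chga, the standard neuroendocrine marker chromogranin A, had -0.17 (edgeR adjusted p = 0.668).

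Of 24 transcription factors of endocrine cells tested, 8 fell and 7 rose, with a median of -0.44. Neurod1, a factor of islet and gut endocrine differentiation, had 420 and 446 reads in heterozygous mTEC, against 105 and 95 reads in homozygous mTEC. It rose by 2.16 on the log2 scale (SE 0.22, edgeR adjusted p = 4.7e-06), against the direction of 9 of the hormones. Isl1 (0.66) and Mafa (1.12) also rose, and Hnf4a (-2.77), St18 (-0.99) and Rfx6 (-1.34) fell.

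Of 17 receptors for the hormones tested, 11 fell and 1 rose, with a median of -1.46. Ghsr, the ghrelin receptor, had -3.36, Gcgr, the glucagon receptor, -1.82, and Npy2r, a receptor for peptide YY, -2.68, while the somatostatin receptor Sstr3 rose by 1.09. Of these 17, 5 passed the filter only with the homozygous mTEC libraries, Ghsr and Npy2r among them.

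Of 39 other peptide hormone genes tested, of 47 listed, 33 fell and 2 rose, with a median of -2.33. Penk (proenkephalin) had -2.24, Iapp (amylin, stored with insulin) -2.55 and Pomc (the precursor of ACTH) -2.96. The 2 that rose were Grp (gastrin-releasing peptide, 1.09) and Insl3 (an insulin-like peptide, 1.21). Of the 39, 10 passed the filter only with the homozygous mTEC libraries.

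Of the 15 mTEC markers, 8 fell and 1 rose, with a median of -0.37. Cd86 (-3.75), Cldn4 (-2.17) and Cd80 (-1.24), markers of mature mTEC, had the smallest p-values among those that fell. The 1 that rose, Tnfrsf11a (the receptor RANK), had 0.23 (edgeR adjusted p = 0.0342). That call was lost with median-ratio factors (0.34), by DESeq2 (0.436), without the low-count filter (0.161), without normalization factors (0.0515) and without heterozygous mTEC library 1 (0.0827), heterozygous mTEC library 2 (0.118) or homozygous mTEC library 1 (0.251). Aire had a log2 fold change of -0.11 ± 0.12 (edgeR adjusted p = 0.446), and Fezf2 one of -0.43 ± 0.07 (adjusted p = 1.84e-04). The log2 fold change of each of the 10 hormone genes was larger in size than that of either regulator, a difference that was not tested. The 10 genes were chosen with earlier results of these data known, so the larger sizes are a description only.

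**Figure D3:**
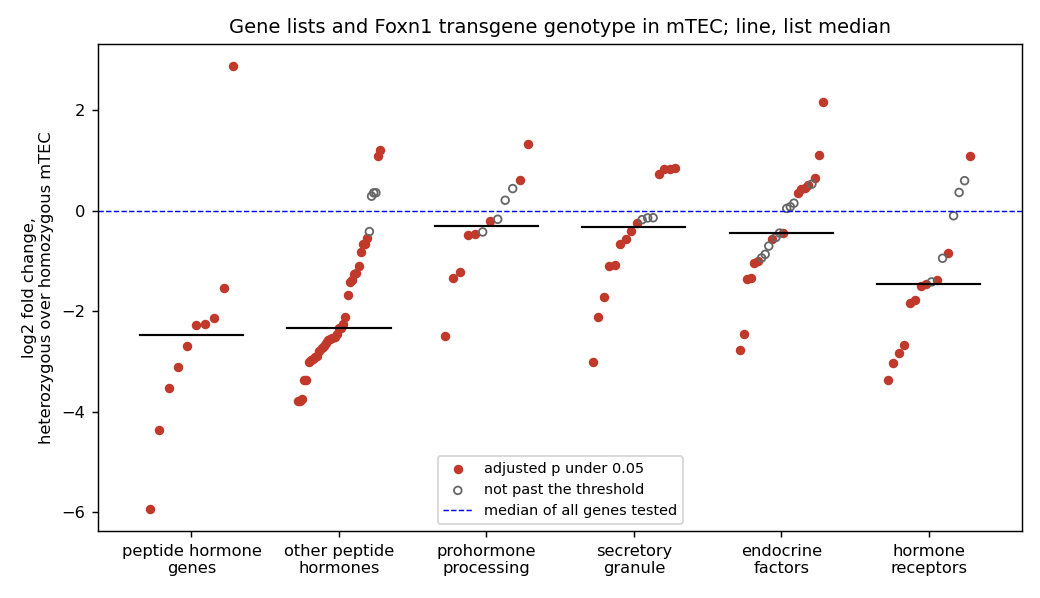
Log2 fold change, heterozygous over homozygous mTEC (y axis), of the genes tested in 6 lists (x axis; filled, adjusted p under 0.05; open, not past it; black line, list median; dashed line, median of all genes). The hormone lists have medians of -2.48 and -2.33, and the receptor list one of -1.46. The processing, granule and factor lists have medians of -0.31, -0.33 and -0.44. The receptor Npy4r, with 0 and 23 reads in heterozygous and homozygous mTEC, is left out of the points.

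In cTEC of the same mice, Cck was the member that passed the test between transgene genotypes, and it rose. It had 42, 47 and 19 reads in heterozygous cTEC, against 18, 8 and 9 reads in homozygous cTEC. The means were 1.66 ± 0.692 CPM in heterozygous and 0.544 ± 0.260 CPM in homozygous cTEC (SD, n = 3 each), a log2 fold change of 1.47 ± 0.38 (edgeR adjusted p = 0.00642). The groups did not overlap, but the lowest heterozygous library (0.872 CPM) lay just above the highest homozygous one (0.842 CPM). In this contrast 42.8% of genes passed the threshold, 20.9% higher and 21.9% lower. Without normalization factors, 32.5% of the genes called in cTEC were lower, against 51.1% in the fit reported, and the median of all genes shifted by 0.13.

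Ghrl had 6, 8 and 7 reads in heterozygous cTEC, against 2, 5 and 5 reads in homozygous cTEC. The log2 fold change was 0.64 ± 0.46 and did not pass the test (edgeR adjusted p = 0.316), although the libraries did not overlap by CPM. The other 8 genes had at most 3 reads over the 3 libraries of each cTEC group, so no fold is given. Sst, for instance, had 0 reads in all 3 heterozygous cTEC libraries and 1 read in each homozygous one. Of these genes, Gip and Pth2 had no read in any of the 6 libraries, which allows up to 0.0465 CPM in homozygous cTEC (3 reads over the group).

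Some genes of the other lists also differed between the cTEC genotypes. Of 12 processing genes 6 rose and 1 fell, with Pcsk6 at 1.10, Cpe (carboxypeptidase E) at 1.16 and Pcsk2 at 2.41, and with Pam (the amidating enzyme) at -0.30, while Pcsk1 had 3 reads in heterozygous and 0 in homozygous cTEC. Of 16 granule genes 3 rose and 3 fell, among them Syt7 (2.66), Chga (2.40) and Ptprn2 (-2.73). Without heterozygous cTEC library 2 the Chga value was 1.57 (edgeR adjusted p = 0.000499). Of 24 factors 4 rose and 5 fell, with Foxa1 at 2.50 and Mafa at -1.64, and Neurod1 had 5 reads in heterozygous and 2 in homozygous cTEC. Of 17 receptors 3 rose, Sstr2 (2.11) with the smallest p, and 1 fell, the GLP-1 receptor Glp1r (-2.77). Of 39 other hormones 4 rose and 4 fell, with Lhb at 0.88 and Penk at -0.50.

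Of the 15 mTEC markers 6 rose and 7 fell in heterozygous cTEC, with Krt14 (2.16) and Krt5 (2.39) higher and Cd40 (-1.97) and Fezf2 (-1.32) lower. Aire had -0.80 ± 0.25 (edgeR adjusted p = 0.0206), and that call was lost without heterozygous library 2 or 3, without homozygous library 1 or 2 (adjusted p up to 0.118) and without the low-count filter (0.0681). Summed mTEC markers were 834 to 1040 CPM in heterozygous and 333 to 359 CPM in homozygous cTEC, fibroblast markers 223 to 249 CPM in heterozygous and 46.0 to 47.9 CPM in homozygous cTEC, and thymocyte markers 11.5 to 20.2 CPM in heterozygous and 70.98 to 114.5 CPM in homozygous cTEC. All 12 cTEC markers and all 15 thymocyte markers fell, and 4 of 9 fibroblast markers rose and 1 fell. Their part in the Cck difference was not tested.

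Set against each other, the genotype differences of the 2 subsets diverged for Cck and Ghrl. The interaction (heterozygous over homozygous in mTEC, minus the same in cTEC) was -3.59 ± 0.46 for Cck (edgeR adjusted p = 4.46e-05) and -4.17 ± 0.52 for Ghrl (adjusted p = 3.83e-05). Cck thus fell in heterozygous mTEC and rose in heterozygous cTEC. For the other 8 genes the cTEC reads were too few for an interaction to be read. Over all genes 42.5% passed this test, 17.2% lower and 25.2% higher. The share of lower among those called was 40.6%, but 53.6% with median-ratio size factors and 57% without normalization factors, where the median of all genes shifted by -0.13 and -0.16.

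Over the lists, the interaction was lower for 4 and higher for 1 of 12 processing genes, lower for 6 and higher for 2 of 16 granule genes, and lower for 3 and higher for 6 of 24 factors. It was lower for 5 of 17 receptors, lower for 8 and higher for 2 of 39 other hormones, and lower for 7 and higher for 2 of 15 mTEC markers. These list counts were made without a limit on cTEC reads and are a description. Gcgr, called lower, had 4 reads in heterozygous and 0 in homozygous cTEC, and Tac1, also called lower, had 3 and 0. Ghsr and Cckbr, among the receptors tested, had 0 reads in both cTEC groups, so no interaction could be read. Cpe (-1.62), Syt7 (-1.81), Foxa1 (-3.07) and Penk (-1.74) were lower, and Ptprn2 (2.08), Mafa (2.76) and Grp (0.78) higher. Chga had -2.57 (edgeR adjusted p = 0.00485), and -1.74 without heterozygous cTEC library 2 (0.000529), and Pcsk2 had -2.58 (0.00475). The cTEC reads of Pcsk1 and Neurod1 were too few for an interaction to be read. Aire had 0.69 (adjusted p = 0.0657) and was called without homozygous cTEC library 3 (0.95, 0.00316). Fezf2 had 0.89 (adjusted p = 0.05, at the threshold and not called) and was called without heterozygous cTEC library 1 (0.0195), homozygous cTEC library 3 (0.0398) or homozygous mTEC library 1 (0.0474).

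**Figure D4:**
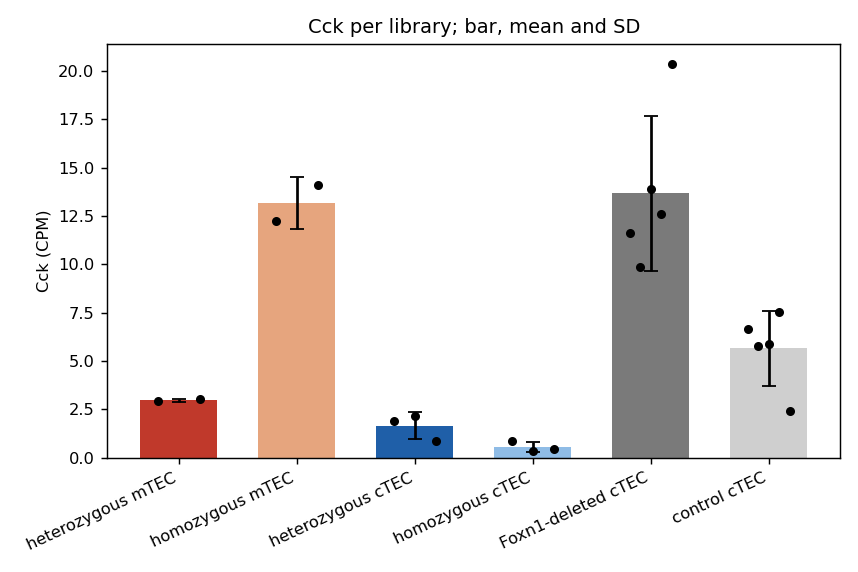
Cck in the 6 groups (y axis, CPM; bars, group means from 0; whiskers, SD; points, libraries). The heterozygous bar is below the homozygous one in mTEC and above it in cTEC, and the Foxn1-deleted libraries (9.86 to 20.4 CPM) lie above the control libraries (2.41 to 7.52 CPM).

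Between the subsets, all 10 hormone genes were higher in mTEC than in cTEC in both transgene genotypes. Because 9 of the 10 passed the low-count filter through mTEC libraries only, that count is a description. In homozygous mice 82.6% of genes passed the threshold, 43.2% higher and 39.4% lower in mTEC. There 47.7% of the genes called were lower, against 40.4% with median-ratio factors and 37.5% without factors, with shifts of 0.18 and 0.24 in the median of all genes.

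In homozygous mice, Gip was at least 198-fold, Pdyn at least 630-fold and Pth2 at least 12.9-fold higher in mTEC, each against 3 reads over the cTEC group, which had none. Ins2 had 282 reads in mTEC and 1 in cTEC, a ratio of 421 per read sequenced (95% counting interval 74.9 to 16683). Gcg had 631 in mTEC and 1 in cTEC (ratio 942, interval 168 to 37258), and Ppy 508 in mTEC and 1 in cTEC (ratio 758, interval 135 to 30007). Pyy had 1088 in mTEC and 2 in cTEC (ratio 812, interval 224 to 6713), and Sst 1038 in mTEC and 3 in cTEC (ratio 516, interval 176 to 2508). The lower ends of these intervals are the firmer figures, since the cTEC counts are so small. Ghrl and Cck, with 12 and 35 reads in homozygous cTEC, had fitted log2 differences of 6.18 ± 0.25 (edgeR adjusted p = 5.18e-11) and 4.34 ± 0.31 (adjusted p = 1.53e-08).

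In heterozygous mice 72.0% of genes passed, 40.4% higher and 31.6% lower in mTEC. Sst was at least 108-fold, Pth2 at least 95.9-fold, Gcg at least 64.6-fold, Pyy at least 62.6-fold, Ins2 at least 6.67-fold and Gip at least 3.08-fold higher in mTEC, on the same basis. These limits rest on 2 mTEC libraries, and without heterozygous mTEC library 1 that of Ins2 was 2.05-fold, while without heterozygous mTEC library 2 it was 11.3-fold and that of Gip 2.05-fold. Ppy had 76 reads in mTEC and 2 in cTEC (ratio 58.5, interval 15.6 to 491) and Pdyn 420 in mTEC and 1 in cTEC (ratio 646, interval 115 to 25578). The Ins2 call was lost without heterozygous mTEC library 1 (edgeR adjusted p = 0.0897) and the Gip call without heterozygous mTEC library 2 (adjusted p = 0.0554).

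Ghrl differed by 2.01 ± 0.33 between the heterozygous subsets. Cck differed least, with 62 and 64 reads in heterozygous mTEC against 42, 47 and 19 reads in heterozygous cTEC and a log2 difference of 0.76 ± 0.31 (edgeR adjusted p = 0.0398). That Cck call was lost without the low-count filter (adjusted p = 0.0919) and without heterozygous mTEC library 1 (0.0768), heterozygous mTEC library 2 (0.0882) or heterozygous cTEC library 3 (0.0749).

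The endocrine lists were also mostly higher in mTEC. In homozygous mice 8 of 12 processing genes were higher and 2 lower, 15 of 16 granule genes higher and 1 lower, 20 of 24 factors higher and 4 lower, 14 of 17 receptors higher and 2 lower, and 36 of 39 other hormones higher and 3 lower. Scg5 (5.30), Cadps (7.53), the endocrine factor Insm1 (8.49) and the calcitonin-related Calcb (8.69) were higher, and Pcsk6 (-4.00) and Penk (-2.08) lower. Chga had 5.76, Pcsk2 4.01, Aire 8.69 and Fezf2 8.63, Pcsk1 had 238 reads in mTEC and 0 in cTEC, and Neurod1 had 200 in mTEC and 2 in cTEC.

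In heterozygous mice the counts were 10 higher and 2 lower of 12 processing genes, 15 higher of 16 granule genes, 20 higher and 2 lower of 24 factors, 12 higher and 2 lower of 17 receptors, and 31 higher and 3 lower of 39 other hormones. Insm1 (9.42) and Syt7 (4.85) were higher and Pcsk6 (-3.77) and Penk (-3.83) lower. Chga had 3.19 (4.02 without heterozygous cTEC library 2), Pcsk2 1.43 (2.10 without heterozygous cTEC library 3), Aire 9.38 and Fezf2 9.52. Pcsk1 had 313 reads in mTEC and 3 in cTEC, and Neurod1 had 866 in mTEC and 5 in cTEC. All 15 mTEC markers were higher in mTEC in both genotypes. Myeloid markers summed to 106 to 611 CPM in mTEC and 4.19 to 8.57 CPM in transgenic cTEC, and B cell markers to 17.7 to 44.4 CPM in mTEC and 0.232 to 0.868 CPM in transgenic cTEC, and their part in the hormone differences was not tested.

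In Foxn1-deleted cTEC, Cck again was the member that moved, upward. It had 252, 216, 290, 274 and 422 reads in Foxn1-deleted cTEC, against 146, 127, 130, 166 and 54 reads in control cTEC. The means were 13.7 ± 4.03 CPM in Foxn1-deleted and 5.65 ± 1.94 CPM in control cTEC (SD, n = 5 each), a 2.39-fold rise (SE 0.28 on the log2 scale, edgeR adjusted p = 0.0484). The groups did not overlap, with the highest value in Foxn1-deleted library 5 and the lowest in control library 5. Of 15224 genes, 1.97% passed the threshold, 0.282% higher and 1.69% lower. With the library number as a block the fold change was 1.26 on the log2 scale and the adjusted p was 0.0538, which does not pass. The call was also lost without control library 1 or 3, or without any of the 5 Foxn1-deleted libraries (adjusted p 0.0654 to 0.119), and held without control library 2, 4 or 5.

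The other 9 genes did not pass the low-count filter of that comparison. Ghrl had 4, 6, 7, 4 and 7 reads in Foxn1-deleted cTEC, against 5, 4, 6, 5 and 1 reads in control cTEC. Pyy had 3, 0, 0, 5 and 9 reads in Foxn1-deleted cTEC, against 4, 2, 3, 1 and 4 reads in control cTEC. Over 5 libraries each, Foxn1-deleted and control cTEC had 10 and 10 reads of Gip, 8 and 4 of Gcg, 4 and 5 of Sst, 6 and 7 of Ppy, 11 and 12 of Pdyn, 2 and 2 of Ins2, and 1 and 0 of Pth2. The groups overlapped for all 9, and a difference was not detectable at this depth. Without the filter their edgeR adjusted p lay between 0.55 and 0.996.

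Reads of mTEC genes were present in these cTEC libraries. Aire had 215, 23, 86, 101 and 337 reads in Foxn1-deleted cTEC and 211, 43, 151, 157 and 202 reads in control cTEC (log2 fold change 0.02, edgeR adjusted p = 0.989), against 28 to 65 reads in transgenic cTEC. Summed mTEC markers were 539 to 1920 CPM in Foxn1-deleted and 621 to 1902 CPM in control cTEC. In the fit without the library-number block, 0 of the 15 passed edgeR's test (3 at an unadjusted p under 0.05, 3 by DESeq2). Fibroblast markers summed to 799 to 1463 CPM in Foxn1-deleted and 375 to 878 CPM in control cTEC. Of these, 0 of 9 passed in the same fit (1 at an unadjusted p under 0.05, 1 by DESeq2). Thymocyte markers summed to 67.3 to 470 CPM in Foxn1-deleted and 73.2 to 618 CPM in control cTEC, and 7 of the 12 cTEC markers fell. Their part in the sparse hormone reads and in the Cck difference was not tested.

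Few genes of the endocrine lists passed in the fit without the library-number block. Of 8 processing genes tested 1 fell, Pcsk6 (-0.58, edgeR adjusted p = 0.0458), of 12 granule genes 1, Ptprn2 (-2.20, adjusted p = 0.0312), and of 6 receptors 1, Glp1r (-3.22, adjusted p = 0.00934). The Pcsk6 call was lost without control library 3, 4 or 5, without any Foxn1-deleted library and without normalization factors (adjusted p 0.0507 to 0.13). The Ptprn2 call was lost without control library 1 or 3 and without Foxn1-deleted library 1, 2, 4 or 5 (adjusted p 0.0532 to 0.104). By edgeR 0 of 9 factors passed (3 at an unadjusted p under 0.05, 1 by DESeq2), and 0 of 11 other hormones (1 at an unadjusted p under 0.05, 1 by DESeq2). Chga had 0.29 (adjusted p = 0.827) and Fezf2 -0.13 (adjusted p = 0.942), while Neurod1, Pcsk1 and Pcsk2 were not among the genes tested.

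Ordered by mean CPM over the 6 groups, 8 of the 10 genes were highest in homozygous mTEC and next in heterozygous mTEC. The libraries of these 2 groups did not overlap for any of the 10 genes, again a description without a share over all genes. For Gip the heterozygous mTEC libraries overlapped those of Foxn1-deleted cTEC, the group next below, while for the other 7 of these genes they did not overlap the group next below. For Ins2, however, heterozygous mTEC library 2 and control cTEC library 1 had 2 reads each (0.0944 and 0.0914 CPM). Pth2 was highest in heterozygous mTEC (4.41 CPM), next in homozygous mTEC (0.602 CPM) and near 0 in cTEC. For these 9 genes, neighbouring cTEC groups in the order overlapped. Cck had its own order, from Foxn1-deleted cTEC (13.7 CPM) and homozygous mTEC (13.2 CPM), which overlapped, to control cTEC (5.65 CPM) and heterozygous mTEC (2.97 CPM), which also overlapped, then heterozygous cTEC (1.66 CPM) and homozygous cTEC (0.544 CPM). The deletion and transgenic libraries come from different mice, and levels between them were not tested.

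The genes most like each member were ranked by Pearson r of log2(CPM + 0.5) over the 20 libraries among 15625 genes, as a description in which the mTEC and cTEC difference sets most of the value. Gcg, Sst, Pdyn, Ppy and Pyy had 198, 192, 152, 102 and 78 genes above an r of 0.99, and Ins2 and Ghrl 31 and 23, while Gip had 0. The nearest were Hotair for Gcg (0.998), Krt24 for Sst (0.998), Cd101 for Pdyn (0.997), Scgn for Ppy (0.997), Scgb1a1 for Pyy (0.997), Sftpb for Ins2 (0.996), Syt6 for Ghrl (0.994) and Sprr2f for Gip (0.989). Sftpb (surfactant protein B) and Scgb1a1 (the club cell secretory protein) are known from the lung, Krt24 and Sprr2f from surface epithelia.

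Pth2 and Cck also had few close companions. For Pth2, 1 gene was above 0.99, the immunoglobulin segment Igkj1 (0.991), followed by Ascl3 (0.986) and Sox1 (0.983), and for Cck none was, with Sec14l4 (0.966), Edn1 (0.956) and Apol10b (0.954) nearest. Like Pth2, Ascl3 had 9.08 CPM in heterozygous and 1.46 CPM in homozygous mTEC, and Sox1 had 4.43 CPM in heterozygous and 1.18 CPM in homozygous mTEC. Edn1 (endothelin, itself a peptide made from a precursor) had 1.63 CPM in heterozygous and 4.61 CPM in homozygous mTEC. With a pseudocount of 2 in place of 0.5, 14 of the 30 nearest genes were kept.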

How the data were processed

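RNA of sorted cTEC and mTEC was enriched for polyA and sequenced from TruSeq libraries, per the labels' protocols. The authors deposited unnormalised whole-number read counts per gene. The submitters' processing notes name TopHat2 2.0.10 and featureCounts among the tools and the builds mm10 and GRCm38. Neither the annotation nor the strandedness of the counting is given in the sources used here. The chromatin samples were not analysed here.

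The test was edgeR's (version 4.0.16, R 4.3.3; quasi-likelihood test, TMM factors, filterByExpr with a minimum count of 10 and total of 15, two-sided, Benjamini-Hochberg over all genes tested, threshold 0.05). The 10 deletion libraries had their own fit, and the 10 transgenic libraries shared a fit of 4 groups. The SE is the log2 fold change divided by the root of the F statistic. CPM uses the library total (20719630 to 22372633 reads), so 1 read is near 0.05 CPM. Intervals on count ratios are exact 95% intervals, and floors are 3 reads over a group. Both cover counting error only. The test was checked on simulated counts.

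Library numbers paired the deletion samples except library 3: each other Foxn1-deleted library was most like the control library of its number. Deviations of same-numbered libraries correlated by 0.653, 0.780, 0.112, 0.401 and 0.492, in order of library number. The fit without the block is reported, and in that set the blocked value is given where it changes a member's call. Counts over the gene lists come from the fit without the block, which called fewer genes, and were not made with it. In the transgenic set these correlations were at most 0.0991.

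The members and all gene lists were chosen with earlier results of these data known. By rule, up to 3 genes of smallest adjusted p per direction and list are named, with Aire, Fezf2, Chga, Neurod1, Pcsk1 and Pcsk2 always. Promoters and gene spans came from RefSeq (GRCm38.p6). Alternatives were median-ratio factors, DESeq2 1.42.0, no low-count filter, a library-number block and leaving out each library. A fit without normalization factors was added after seeing the data.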

Additional observations from a re-analysis of the deposited data

Results flagged for a closer look

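Cck and Ghrl differed between transgene genotypes unequally in the 2 subsets, by a test of that difference. The interaction was -3.59 for Cck and -4.17 for Ghrl on the log2 scale.

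Among 19 sets of 5 libraries with reads of a member, 4 held a library whose gap to the next was unusually wide for its group. All were sparse and on the high side: Gip in Foxn1-deleted library 5 (0.434 CPM, 9 reads), Pth2 in Foxn1-deleted library 3 (0.0479 CPM, 1 read), Ins2 in control library 1 (0.0914 CPM, 2 reads) and Ppy in control library 5 (0.179 CPM, 4 reads). The usual rate, by which chance flags about 1 in 20 groups, holds for continuous values and does not carry over to counts this sparse. For Pth2 and Ins2, 1 library alone had reads, and such a set is always picked out. Foxn1-deleted library 5 also had the most Aire reads of its group (337) and the most Cck reads (422).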

How the results depend on the processing

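Of 35 member results with enough reads, 31 kept their direction and their side of the threshold under every alternative run. The other 4 were Cck in the deletion and Cck, Ins2 and Gip between the heterozygous subsets, each described with its result. With a replicate block the Cck difference between heterozygous subsets was 0.50 (adjusted p = 0.104), and 0 members were called in the deletion. DESeq2 gave an adjusted p of 5.26e-04 for Cck in the deletion. The block changed no other member call. For Aire the interaction was 0.67 with the block (adjusted p = 0.0286), against 0.69 and not called without it.

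Among all genes, the deletion called 43 higher and 257 lower, against 295 and 769 by DESeq2 and 398 and 822 with the replicate block. Leaving out a library gave 0 to 188 higher, 27 to 732 lower and 0 to 1 members. The count of 0 higher came without Foxn1-deleted library 1, 4 or 5 by edgeR, where 990, 854 and 876 genes were higher at an unadjusted p under 0.05. DESeq2 called 3421 genes higher between the mTEC genotypes, against 5550. For the interaction 3219 were higher by DESeq2 and 3106 without normalization factors, against 4848.

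Of 171 results for other named genes, 151 were the same throughout. Uncalled values that changed sign were, in the deletion, Aire (-0.23 with the block, -0.50 to 0.31 with a library left out), Fezf2 (-0.79 to 0.32) and Chga (-0.16 to 0.76). Neurod1 ranged from -0.47 to 3.84 between the cTEC genotypes and from -1.68 to 2.64 in the interaction, on 7 cTEC reads in all. Depth limits every statement on 9 members in cTEC, where a group often had under 4 reads. With 2 libraries a group in mTEC, SDs are rough.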

Other observations

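Parathyroid hormone itself (Pth), outside the 10 genes, had 60, 258 and 40 reads in heterozygous cTEC, against 6, 25 and 6 reads in homozygous cTEC. Heterozygous library 2 stood well above the other libraries, and it also had the most Chga reads (301, beside 111 and 69). Gcm2, the defining factor of the parathyroid, had 3, 4 and 0 reads in heterozygous cTEC and 0, 0 and 1 in homozygous cTEC. Of the 8 parathyroid and thyroid markers, 2 rose and 2 fell in heterozygous relative to homozygous cTEC. Pth (log2 fold change 3.11) and Tg (1.85) were higher, and Casr (-0.62) and Slc5a5 (-0.39) lower. The Pth value was 1.86 without heterozygous cTEC library 2 (edgeR adjusted p = 0.00525) and 4.12 without homozygous cTEC library 2 (adjusted p = 0.00697). Tg rested on 17 reads in heterozygous and 4 in homozygous cTEC (edgeR adjusted p = 0.0475). In mTEC, Pth had 91 and 161 reads in heterozygous and 113 and 90 reads in homozygous libraries, which overlapped. The part of parathyroid cells in these reads was not tested.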
